A study of Drosophila melanogaster with 42 samples.

Results

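A set of 186 of the 16637 transcripts on the array was highest in the wild-type ring gland of Drosophila melanogaster in the middle of the third larval instar, the last stage before the puparium forms. A transcript belonged to the set when the higher of its mean log2 intensities at 8 and 24 h into the instar was at least 7 and lay at least 0.8 above both its 4 h mean and its 36 h mean. The means were taken over 3 arrays. Of the 186 transcripts, 89 were highest at 8 h and 97 at 24 h. Because these glands chose the set, every value of the wild-type gland below is a description and carries no test.

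The series asked how the ring gland differs from the whole larva through the last instar, and what changes in it when prothoracicotropic hormone (PTTH) signalling is altered genetically. RNA was measured on 42 single-colour Cy3 NimbleGen arrays, with 3 arrays for each of 14 groups, which the labels call biological replicates. The wild-type arrays cover w1118 ring glands and whole w1118 larvae at 4, 8, 24 and 36 h of the third instar. The other 18 arrays cover ring glands taken 18 and 8 h before puparium formation. The driver phantom-Gal4, in the line phm22, was crossed to Torso-RNAi, to RasV12 or, as control, to w1118, so that all these glands carry the driver. RasV12 is a constitutively active Ras. The labels describe the Torso-RNAi larvae as developmentally delayed and the RasV12 larvae as accelerated, so that equal hours before puparium formation need not be equal ages. All larvae were raised in the dark on yeast paste. For the 9 arrays of the later driver-cross groups the sample titles give 18 h and the source descriptions 8 h. The source description was used here. By their titles, larvae of the earlier groups had a blue gut and those of the later groups a partly cleared one.

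The ring gland is the endocrine organ of the fly larva that makes ecdysone, the steroid whose pulses time the molts and metamorphosis. Its prothoracic gland cells, where phantom encodes an enzyme of ecdysone synthesis, receive PTTH through the receptor Torso, which signals through Ras. The gland also holds the corpora allata, which make juvenile hormone, and the corpora cardiaca, which make adipokinetic hormone. RNA came from the whole ring gland, while the driver acts in the prothoracic gland cells.

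The deposited table gives FlyBase transcript identifiers and no gene names. A reference gene table matched 44 of the 16637 identifiers, of which 16 belonged to a single named gene, and 0 of the 186 transcripts were among the matches. The transcripts are therefore given by identifier and no role is assigned to them. None of the named transcripts belonged to the lists of ecdysone synthesis, PTTH signalling and cell type marker genes, so the tissue could not be checked against its markers. Of the 186 profiles, 20 took part in 12 pairs with a Pearson correlation of at least 0.99 over the 24 wild-type arrays, among them FBtr0113196 and FBtr0113197 at 0.996, so not all are separate observations. Array medians lay between 276.1 and 335.5 intensity units in the wild-type arrays and between 348.8 and 393.6 in the driver crosses. The wild-type and driver-cross arrays appear to have been normalized separately, because their lowest intensities were 8.23 to 9.52 and 1.83 to 2.06 units, and no test was made across them. The chip on which each array lay is not given in the sources used here, so chip and group cannot be told apart.

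The peaks differed in shape. Over the 186 transcripts the peak stood above the 4 h mean by a median of 1.38 on the log2 scale, with a range of 0.80 to 6.95, and above the 36 h mean by a median of 1.76, with a range of 0.81 to 5.38. Transcripts highest at 8 h had a median difference of 1.18 from 4 h and of 1.81 from 36 h, and the difference from 4 h was the larger one in 14 of 89. Those highest at 24 h had medians of 1.65 and 1.73, and the difference from 4 h was the larger one in 46 of 97. The other middle time also stood at least 0.8 above both ends in 13 transcripts. The transcript nearest to the difference threshold inside the set was FBtr0085617, whose smaller difference was 0.803, and the nearest outside was FBtr0084255, at 0.798. At the level threshold the neighbours were FBtr0079073, with a log2 mean of 7.01, and FBtr0076316, with 6.99.

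**Figure D1:**
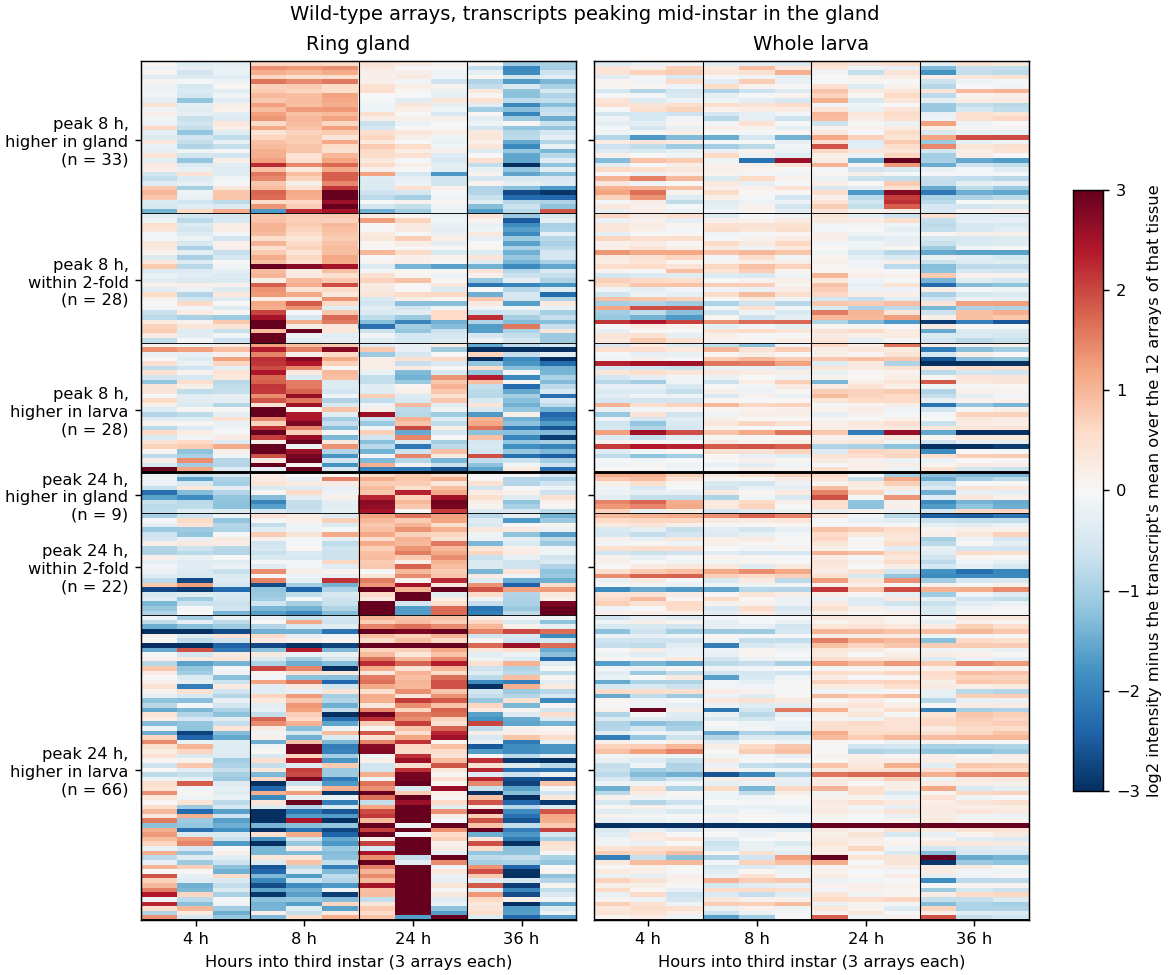
Log2 intensity of the 186 transcripts minus each transcript's mean over the 12 arrays of that tissue, for ring gland at left and whole larva at right, with 3 arrays for each time in hours of the third instar. Rows are grouped by peak time and by the wild-type level in ring gland relative to whole larva at that time. The rows were chosen by the gland arrays, so mid-instar red that is stronger in the gland than in the larva follows from the rule. In the lower part of the lowest block the 24 h red rests mainly on the second of 3 arrays.

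The size of a peak is taken here as the smaller of its differences from the 4 h and the 36 h mean, whatever its level. FBtr0078848 had the largest peak of those highest at 8 h. Its gland intensities were 323, 106 and 179 at 4 h, 1718, 1238 and 1068 at 8 h, 142, 71.4 and 62.2 at 24 h, then 70.5, 49.7 and 63.5 at 36 h. All 3 arrays at 8 h were above all other gland arrays. FBtr0084439 came next, with 37.8, 40.9 and 38.7 units at 4 h, 131, 87.0 and 734 at 8 h, 35.1, 31.9 and 46.9 at 24 h, then 21.7, 33.5 and 22.6 at 36 h. Its 8 h arrays were also above all others but differed among themselves, with the third far above the other two.

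Of the transcripts highest at 24 h, FBtr0112921 had the largest peak by the same measure. Its gland intensities were 405, 75.9 and 126 at 4 h, 32.8, 56.7 and 62.4 at 8 h, 1156, 9147 and 263 at 24 h, then 732, 29.2 and 219 at 36 h. The 24 h arrays overlapped with those of 4 and 36 h and differed widely, with the second by far the highest. The transcript still met the rule with each of the 12 gland arrays left out in turn. FBtr0077218 followed, with 1837, 749 and 593 units at 4 h, 842, 2321 and 174 at 8 h, 10481, 4017 and 4445 at 24 h, then 446, 1050.0 and 1974 at 36 h. Here the 24 h arrays were above all 9 others.

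**Figure D2:**
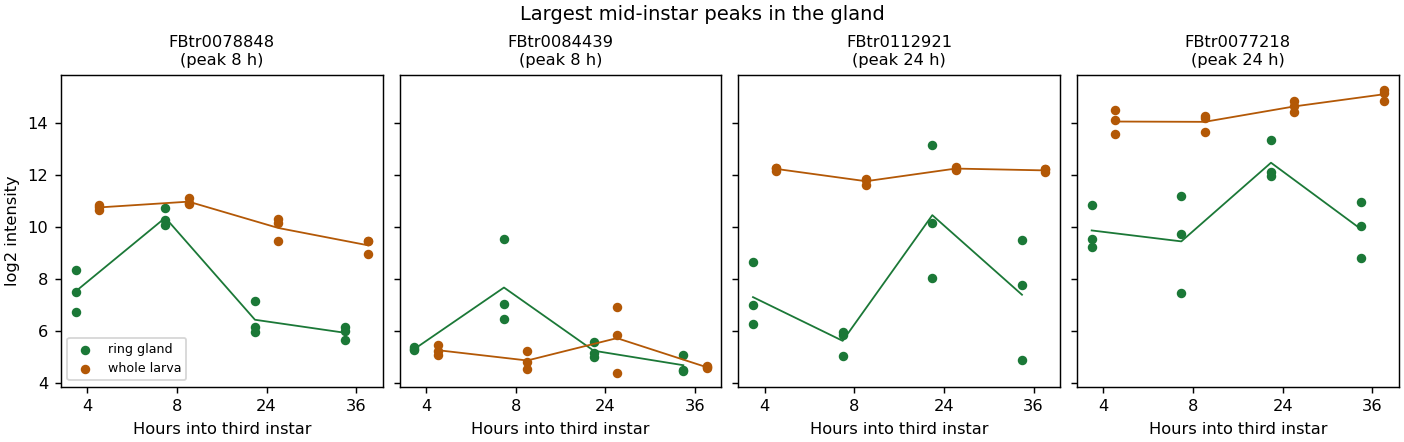
Log2 intensity in ring gland (green) and whole larva (orange) against hours into the third instar for the 2 transcripts with the largest peak at 8 h and the 2 with the largest peak at 24 h. Points are single arrays, lines join the means of 3 arrays. Peak size is the smaller of the differences from the 4 h and the 36 h mean. The gland lines peak at 8 or 24 h, as the rule required, and the lines of the larva, which the rule did not use, are flatter.

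How far the peak rests on single arrays varied strongly. With each of the 12 gland arrays left out in turn, 71 transcripts met the rule every time, 33 of them highest at 8 h and 38 at 24 h, and 115 failed it at least once. The set then held between 172 transcripts (without the second 36 h array) and 248 (without the third 8 h array), of which 155 (without the second 24 h array) to 180 (without the first 4 h array) were among the 186. All 3 peak arrays lay above all 4 h and 36 h arrays in 95 of the 186, against 4.23% of all 16637 transcripts, a share that follows from the rule. At the peak time the 3 arrays spanned a median of 1.62 log2 units, over 2 units in 82 transcripts and under 1 unit in 79. Of the 97 transcripts highest at 24 h, 52 had their highest value in the second array, with a median span of 2.88.

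The transcripts fell into 3 groups by their level in the gland relative to the whole larva at the peak time. In 42 the gland mean was at least 2-fold higher, in 50 the tissues were within 2-fold and in 94 the larva was at least 2-fold higher. The 42 gland-rich transcripts were mostly early, 33 highest at 8 h and 9 at 24 h. The 94 larva-rich ones were mostly late, 28 highest at 8 h and 66 at 24 h. The largest excess in the gland among transcripts named here was that of FBtr0076789, with 4446, 4841 and 3637 units in ring gland at 8 h, against 87.5, 169 and 90.8 in whole larva. The opposite is seen in FBtr0070539, with 1600.1, 68.6 and 228 units in ring gland at 24 h, against 9055, 4063 and 5464 in whole larva. In neither did the arrays of the 2 tissues overlap.

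The groups differed in how closely the 3 peak arrays agreed. The median span was 0.43 log2 units in the gland-rich transcripts, 0.81 in those within 2-fold and 2.78 in the larva-rich ones. The peak arrays lay above all 4 h and 36 h arrays in 38 of 42, 33 of 50 and 24 of 94. The arrays were also compared over 197 transcripts outside the set that were at least 16-fold higher in whole larva than in ring gland at both 4 and 36 h, a list made from these same arrays. Their median log2 intensity in the gland was 6.26, 6.92 and 6.24 at 4 h, 5.73, 6.64 and 5.58 at 8 h, 5.84, 6.26 and 5.80 at 24 h, then 5.95, 5.35 and 5.62 at 36 h, against 11.65 to 12.39 in whole larva. The second array was the highest of its group at 4, 8 and 24 h and the lowest at 36 h, and the second of 4 h was the highest of all 12 gland arrays. RNA of other larval tissue may be present in a dissected gland, and its part in the peaks was not tested. In bulk RNA fewer cells of a type and less RNA per cell cannot be told apart.

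**Figure D3:**
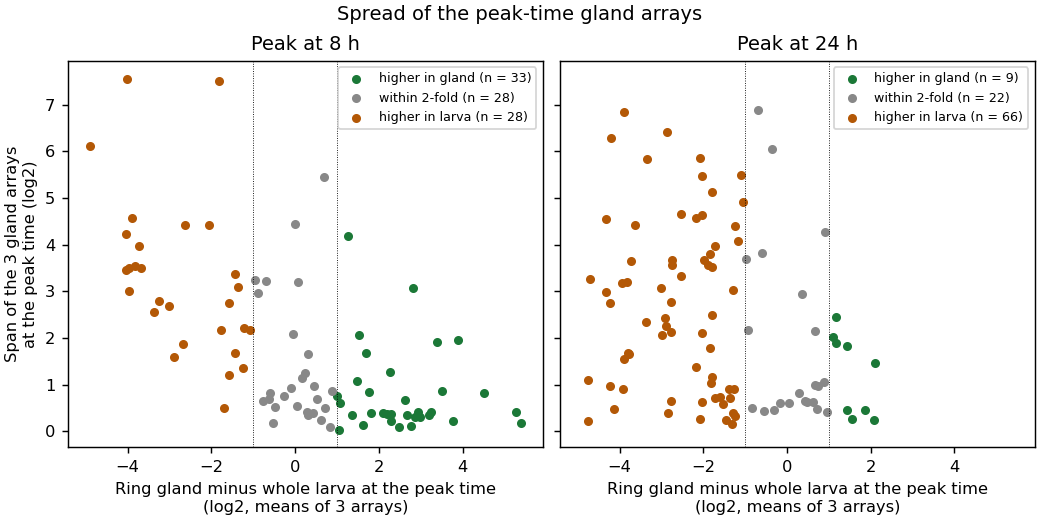
Span of the 3 ring gland arrays at the peak time (log2, highest minus lowest) against ring gland minus whole larva at that time (log2 means of 3 arrays), for transcripts highest at 8 h and at 24 h. Each point is a transcript and dotted lines mark 2-fold differences. Larva-rich transcripts reach spans above 6, and most gland-rich ones stay below 1.

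Whole larvae were not used by the rule and were tested over time. A change was called at an adjusted p under 0.05 in limma, and the shares given in parentheses are those of all 16637 transcripts called in that direction. Few of the transcripts showed the gland's peak in the larva, and such larval peaks were rare among all 16637 transcripts too. Of the 89 highest at 8 h, 0 rose between 4 and 8 h (0.505%) and 2 fell (1.8%), and between 8 and 36 h 8 rose (24.1%) and 26 fell (26.6%). At an unadjusted p under 0.05, 1 of the 89 rose between 4 and 8 h. Of the 97 highest at 24 h, 18 rose between 4 and 24 h (15.2%) and 6 fell (14.5%), and between 24 and 36 h 0 rose (11.1%) and 13 fell (11%). The count of 0 stayed 0 at an unadjusted p under 0.05. The median change from 24 to 36 h was -0.32 in these 97 and -0.05 in all transcripts.

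A peak in the larva, a called rise from 4 h to the gland's peak time followed by a called fall to 36 h, was found for 0 of 89 transcripts at 8 h (0.18%) and for 2 of 97 at 24 h (0.691%). At an unadjusted p under 0.05 the counts were 1 and 4. A trough, the opposite course, was called for 0 of 89 (0.541%) and 0 of 97 (0.577%) and for 0 of each at an unadjusted p under 0.05. FBtr0088663 was 1 of the 2 with a peak, with larval intensities of 3724, 4171 and 3215 at 4 h, 4112, 3436 and 4377 at 8 h, 9488, 8705 and 7575 at 24 h, then 5585, 5735 and 5645 at 36 h. Its 24 h arrays were above all others, by 1.22 ± 0.15 over 4 h (log2, SE, adjusted p = 8.1e-06), and it fell by 0.60 ± 0.15 from 24 to 36 h (adjusted p = 0.010). The gland had 3056, 3065 and 3467 units at 4 h, 5164, 5866 and 6417 at 8 h, 12006, 16715 and 13566 at 24 h, then 8355, 7875 and 5673 at 36 h, so that 24 h was the highest time in both tissues. FBtr0088376 was the other, with a rise of 1.82 ± 0.35 from 4 to 24 h (adjusted p = 0.00069) and a change of -1.25 ± 0.35 from 24 to 36 h (adjusted p = 0.017). Without the first larval array of 24 h neither peak was called, and without the first of 36 h 1 was.

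These counts depend on the spread that the test assumes. The 2 first arrays of 24 and 36 h stood apart among the larval arrays, with a standard deviation of 0.413 and 0.448 log2 units from their group means over all transcripts, against 0.164 to 0.295 in the other 10. Without either of them, 5 of the 97 transcripts fell between 24 and 36 h. Fitted alone, the 12 larval arrays gave 6 rises (0.601%) and 2 falls (1.72%) between 4 and 8 h, 15 rises (23.7%) and 33 falls (27.5%) between 8 and 36 h, 35 rises (12.2%) and 13 falls (14.7%) between 4 and 24 h, and 1 rise (5.99%) and 24 falls (10.4%) between 24 and 36 h. Peaks at the gland's time then numbered 1 of 89 (0.144%) and 4 of 97 (0.733%). FBtr0088663 was among the 4, whereas FBtr0088376 was not, as its fall from 24 to 36 h was no longer called (adjusted p = 0.063). This fit was chosen after the values had been seen.

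The 2 transcripts called lower in the larva at 8 than at 4 h ran against the gland, where the rule required a rise. FBtr0085455 had larval intensities of 96.8, 142 and 95.5 at 8 h, against 228, 391 and 388 at 4 h, a change of -1.57 ± 0.31 (adjusted p = 0.0091), without overlap. FBtr0079073, the transcript just inside the level threshold, had 32.6, 66.2 and 47.0 units at 8 h, against 87.5, 123 and 84.9 at 4 h, a change of -1.06 ± 0.26 (adjusted p = 0.038). In the gland its 8 h arrays, at 141, 84.9 and 179.8 units, were all above the 4 h arrays, at 31.3, 39.3 and 48.6. Its call was lost with 5 of the 6 compared larval arrays left out in turn, and the count of 2 became 0 without the second 4 h or the first 8 h array and 1 without the first or the third 4 h array or the third 8 h array.

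Between 8 and 36 h, FBtr0076789 rose most among the transcripts highest at 8 h, with larval intensities of 133, 74.4 and 97.7 at 4 h, 87.5, 169 and 90.8 at 8 h, 547, 402 and 324 at 24 h, then 558, 929 and 953 at 36 h (2.84 ± 0.32, adjusted p = 9.8e-07). The larva thus kept climbing after 8 h. The gland arrays at 36 h, with 3631, 1633 and 2339 units, were below those of 8 h, a fall that the rule required. Its gland fall of 0.83 in log2 means was close to the threshold of 0.8, and FBtr0076789 met the rule with 10 of the 12 gland arrays left out in turn. FBtr0084771 also rose in the larva, by 1.75 ± 0.40 (adjusted p = 0.0014). FBtr0086998 fell most, with larval intensities of 3082, 3514 and 3601 at 4 h, 1918, 1826 and 1450.2 at 8 h, 482, 770.3 and 334 at 24 h, then 56.7, 50 and 52.9 at 36 h (-5.02 ± 0.38, adjusted p = 8.6e-09). Its larval arrays went down at every step, with no rise at 8 h. FBtr0073304 followed, at -4.94 ± 0.69 (adjusted p = 1.3e-05). The count of 8 rises was 5 without the first or the second 8 h array.

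Between 4 and 24 h, FBtr0073750 had the largest rise among the transcripts highest at 24 h. Its larval intensities were 20.7, 15.8 and 14.1 at 4 h, 14.9, 19.6 and 23.4 at 8 h, 2596, 1927 and 2568 at 24 h, then 1587, 2681 and 2606 at 36 h (7.14 ± 0.64, adjusted p = 1.5e-07). The larva was dim at 4 and 8 h and bright at 24 and 36 h. The gland had 16, 16.7 and 13.6 units at 4 h, 14.3, 15.6 and 16.8 at 8 h, 388, 33.7 and 425 at 24 h, then 68.0, 22.4 and 64.3 at 36 h, a peak well below the larval level. FBtr0080145 rose by 3.34 ± 0.53 (adjusted p = 0.00011), to 1009, 409 and 899 units at 24 h, against 62.1, 81.2 and 71.4 at 4 h. Falls were led by FBtr0273416 (-2.01 ± 0.34, adjusted p = 0.00021) and FBtr0113196 (-1.63 ± 0.52, adjusted p = 0.023). FBtr0113196 had 898, 274 and 698 larval units at 24 h, against 1771, 2129.9 and 1351 at 4 h, whereas in the gland it had 1755, 539 and 2013 at 24 h, against 169, 154 and 117 at 4 h. The arrays of the 2 times did not overlap in either tissue, but the rule required the rise in the gland. The larval call was lost with 3 of the 6 compared arrays left out in turn, with changes of -1.98 to -1.12. The count of 6 falls was 3 without the second 4 h array.

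Between 24 and 36 h the falls in larva were led by FBtr0070539 and FBtr0080726. FBtr0070539 had 561, 1951 and 1789 units at 36 h, against 9055, 4063 and 5464 at 24 h (-2.23 ± 0.76, adjusted p = 0.043), a call lost with 5 of the 6 arrays left out in turn. FBtr0080726 had 45.4, 45.0 and 54.1 units at 36 h, against 326, 227 and 140.1 at 24 h (-2.18 ± 0.30, adjusted p = 6.8e-05). Neither pair of groups overlapped. Larval FBtr0080726 had its highest mean at 8 h, with 645, 843 and 698 units, a time earlier than in the gland. Its rise from 4 to 8 h was not called in limma (0.50 ± 0.30, adjusted p = 0.47). Its fall from 4 to 24 h was called (-1.23 ± 0.30, adjusted p = 0.0045).

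**Figure D4:**
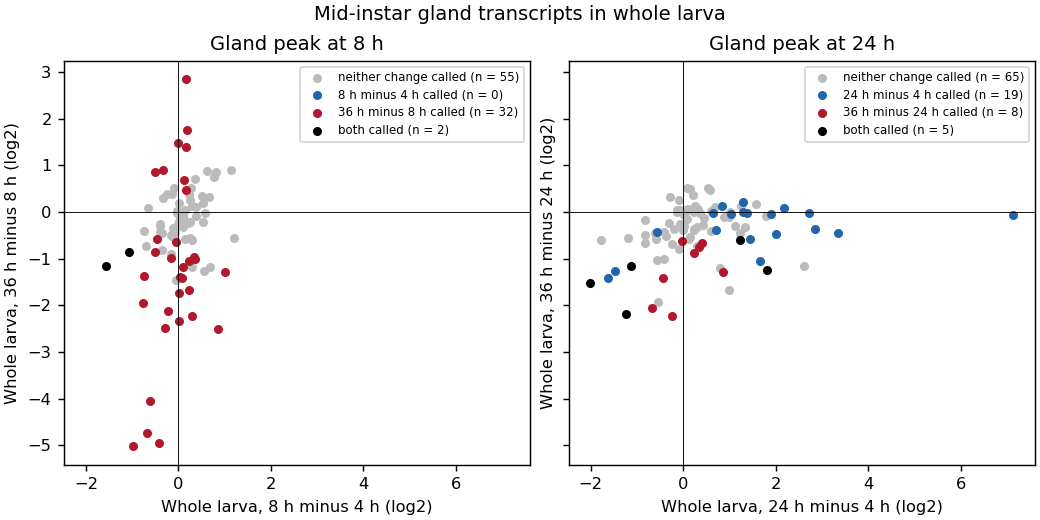
Change in whole larva from the gland's peak time to 36 h (log2) against the change from 4 h to the peak time (log2), for the 89 transcripts highest in the gland at 8 h (left) and the 97 highest at 24 h (right). Each point is a transcript, coloured by which change was called over all wild-type arrays. A larval peak called in both steps would be a black point at lower right, of which there are 0 at left and 2 at right.

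The control driver-cross glands give the set's course late in the instar in another genotype. Between 18 and 8 h before puparium formation, 4 of the 186 transcripts were higher at 8 h (7.6% of all transcripts) and 25 were lower (6.25%), each of the 25 by at least 2-fold. The median change was -0.51, against 0.04 over all transcripts. Transcripts highest at 24 h in wild type made up 19 of the 25, out of 97, and those highest at 8 h the other 6, out of 89. Of the 71 transcripts that met the rule with every gland array left out, 2 were higher and 12 lower. Of the 197 larva-rich transcripts outside the set, 2 were higher and 24 lower, and the median log2 intensity of the 197 was 3.80, 3.77 and 3.71 at 8 h, against 4.66, 4.62 and 4.74 at 18 h. Their part in the decline was not tested. By class, 1 rose and 16 fell of the 94 larva-rich transcripts of the set, 1 and 4 of the 50 within 2-fold, and 2 and 5 of the 42 gland-rich ones. Without the second control array of 8 h, 16 transcripts were lower. The count of 4 was 0 without the first array of 8 h and 2 without the first of 18 h.

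FBtr0077023 had the largest fall, with 20, 10.6 and 25.4 units in control glands at 8 h before puparium formation, against 309, 217 and 273 at 18 h (-3.91 ± 0.60, adjusted p = 0.0014). In wild-type gland it had 339.7, 518 and 198 units at 36 h, against 1169, 833 and 1296 at its 24 h peak. FBtr0075069 had 28.9, 41.5 and 22.4 units at 8 h, against 516, 653 and 233 at 18 h (-3.84 ± 1.00, adjusted p = 0.022), and this call was lost with 5 of 6 arrays left out in turn. FBtr0088191 went the other way, with 1060.3, 273 and 187 units at 8 h, against 39.2, 54.7 and 32.5 at 18 h (3.20 ± 0.75, adjusted p = 0.013). None of the 3 showed overlap between the times. FBtr0084643 was called higher by 0.88 ± 0.26 (adjusted p = 0.039) with no control array above 10.9 units, and lost the call with any of the 6 arrays left out.

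RasV12 and Torso-RNAi glands were each set against these same control arrays, so the 2 comparisons are not independent of each other or of the change over time in the controls. In RasV12 glands 18 h before puparium formation, 31 of the 186 transcripts were higher than in control (22.8% of all transcripts) and 17 lower (21.7%). The median change was 0.36, against 0.06 over all transcripts. Transcripts highest at 8 h were 20 of the 31 higher and 5 of the 17 lower, and transcripts highest at 24 h were 11 and 12. Of the 42 gland-rich transcripts 17 were higher and 4 lower, of the 50 within 2-fold 9 and 3, and of the 94 larva-rich ones 5 and 10. The 71 stable transcripts gave 17 higher and 8 lower. Larva-rich transcripts outside the set had medians of 4.46, 4.09 and 4.47 in RasV12, against 4.66, 4.62 and 4.74 in control. Without the second control array, 11 were lower.

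FBtr0113400, highest in wild-type gland at 8 h, had 189.6, 74.2 and 55.4 units in RasV12 glands at 18 h before puparium formation, against 3.79, 4.63 and 3.46 in control (4.55 ± 0.78, adjusted p = 0.00032). FBtr0071920 had the largest rise but 6534, 271 and 5.47 units in RasV12, against 3.52, 4.38 and 3.90 in control (5.77 ± 2.03, adjusted p = 0.033), with a range of 3.30 to 8.41 when single arrays were left out and the call lost for 5 of the 6. Its wild-type gland arrays were scattered too and read 4076, 34.3 and 346 units at 24 h. FBtr0084695 had the largest fall, with 319.8, 175 and 225 units in RasV12, against 2034, 1712 and 1884 in control (-3.01 ± 0.43, adjusted p = 8.4e-05). FBtr0077020 fell by 2.73 ± 0.41 on the log2 scale (adjusted p = 0.00012), to 8.76, 10.6 and 9.22 units in RasV12, against 81.2, 48.6 and 63.4 in control. For each of these 4 the groups did not overlap.

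At 8 h before puparium formation, 23 transcripts were higher in RasV12 than in control (20%) and 24 lower (22.3%), with a median change of 0.12, against 0.01 over all transcripts. Of the 42 gland-rich transcripts 8 were higher and 3 lower, of the 50 within 2-fold 6 and 5, and of the 94 larva-rich ones 9 and 16. Outside the set, 23 of the 197 larva-rich transcripts were higher and 14 lower. Of the 31 transcripts higher at 18 h, 14 were also among the 23 higher at 8 h, or 7.53% of the set, against 13.4% of all transcripts higher at both times. Transcripts lower at both times numbered 6, of 17 and of 24, or 3.23% of the set, against 14.7% of all transcripts. The 24 lower became 12 without the first RasV12 array, 15 without the third and 13 without the third control array. The 71 stable transcripts gave 10 higher and 11 lower.

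FBtr0071920 was again the highest, with 4711, 46.9 and 2602 units in RasV12 glands at this time, against 4.91, 3.73 and 5.65 in control (7.47 ± 2.03, adjusted p = 0.0088). The change was 6.22 without the first RasV12 array and 9.54 without the second, and stayed called. FBtr0080145 had 69.8, 278 and 84.6 units in RasV12, against 3.63, 2.68 and 3.94 in control (5.13 ± 1.06, adjusted p = 0.0015). Both were clear of the control arrays, whose values for them were near the floor. FBtr0114505 had 15.8, 16.1 and 6.53 units in RasV12, against 174, 231 and 144 in control (-3.92 ± 1.00, adjusted p = 0.0058), and FBtr0081464 fell by 3.84 ± 0.94 on the log2 scale (adjusted p = 0.0046). In the whole larva FBtr0114505 read 5082 units or more on every array.

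In Torso-RNAi glands the calls in the set went mostly upward. At 18 h before puparium formation, 60 of the 186 transcripts were higher than in control (18.5% of all transcripts) and 4 lower (22.6%). The median change was 1.04, against -0.02 over all transcripts, and 54 of the 60 were higher by at least 2-fold. Of the transcripts highest at 24 h in wild type, 35 of 97 were higher and 2 lower, and of those highest at 8 h, 25 of 89 and 2. The 71 stable transcripts gave 27 higher and 1 lower. Leaving out single arrays gave 41 to 60 higher and 3 or 4 lower.

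Some transcripts typical of the whole larva were called higher in these glands as well. The 197 larva-rich transcripts outside the set had medians of 5.79, 5.94 and 5.64 in Torso-RNAi, against 4.66, 4.62 and 4.74 in control, and 54 of them were called higher and 5 lower. Within the set, 39 of the 94 larva-rich transcripts were higher and 2 lower, with a median change of 1.90. Of the 50 within 2-fold, 10 were higher and 0 lower, with a median of 0.66, and of the 42 gland-rich ones 11 were higher and 2 lower, with a median of 0.85. The part of other larval tissue in these counts was not tested.

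FBtr0087911, highest in wild-type gland at 8 h, had 548, 366 and 163 units in Torso-RNAi glands, against 11.1, 10.6 and 3.50 in control (5.43 ± 0.56, adjusted p = 5.4e-06). Wild-type gland had 14.6, 11.8 and 15.7 units at 36 h, against 656, 360.0 and 835 at 8 h. FBtr0077218, 1 of the 2 largest 24 h peaks, had 6708, 3381 and 8749 units in Torso-RNAi, against 78.9, 107 and 1016 in control (4.83 ± 0.81, adjusted p = 0.00029), and 4.14 to 5.99 with single arrays left out. The groups did not overlap, although the third control array stood nearer to Torso-RNAi than the other two did.

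Among the 4 lower ones, FBtr0084695 had 257, 199.6 and 229 units in Torso-RNAi, against 2034, 1712 and 1884 in control (-3.04 ± 0.43, adjusted p = 8.1e-05). Against the same control arrays it was lower in RasV12 too, by a similar amount. Its wild-type gland arrays read 362, 460.0 and 462 units at 8 h and did not exceed 212 at the other times. FBtr0077152 had 7.59, 9.55 and 25.6 units in Torso-RNAi, against 47.5, 43.4 and 32.8 in control (-1.73 ± 0.58, adjusted p = 0.028), a call lost with 4 of the 6 arrays left out in turn.

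**Figure D5:**
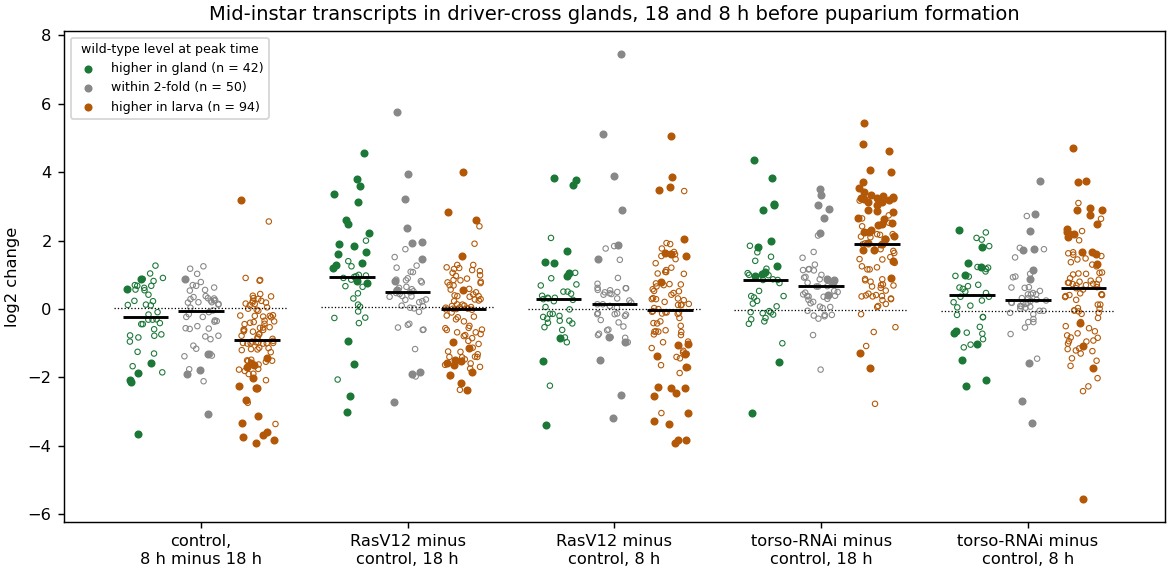
Log2 change of the 186 transcripts in driver-cross glands for 5 comparisons, at 18 and 8 h before puparium formation, split by wild-type level in gland relative to larva at the peak time. Each point is a transcript, filled where called at an adjusted p under 0.05. Short bars are class medians and dotted lines the median of all transcripts. The larva-rich class sits above 0 in Torso-RNAi at 18 h (median 1.90) and below 0 in control over time (median -0.90).

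At 8 h before puparium formation, 29 transcripts were higher in Torso-RNAi than in control (15.5%) and 13 lower (23.6%), with a median of 0.43, against -0.06 over all transcripts. Of the 94 larva-rich transcripts 17 were higher and 4 lower, of the 50 within 2-fold 7 and 3, and of the 42 gland-rich ones 5 and 6. Outside the set, 21 of the 197 larva-rich transcripts were higher and 5 lower, with array medians of 4.12, 4.09 and 4.00 in Torso-RNAi, against 3.80, 3.77 and 3.71 in control, and their part in the counts was not tested. Those highest at 24 h in wild type were 21 of the 29 and 7 of the 13. Of the 60 transcripts higher at 18 h, 17 were also among the 29, or 9.14% of the set, against 10.9% of all transcripts higher at both times. The 29 became 17 without the second control array and 19 without the first control or the third Torso-RNAi array. The 71 stable transcripts gave 13 higher and 4 lower.

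FBtr0082860 had 680.0, 246 and 439 units in Torso-RNAi at this time, against 13.3, 13.9 and 21.6 in control (4.72 ± 0.57, adjusted p = 2.4e-05). FBtr0080145, which was also higher in RasV12 against these same control arrays, had 14.3, 147 and 44.7 units in Torso-RNAi, against 3.63, 2.68 and 3.94 in control (3.75 ± 1.06, adjusted p = 0.012), a change of 2.91 to 4.59 with single arrays left out and a call lost with 1 of them. Its control values were near the floor, as the lowest intensities of these control arrays were 1.98, 1.87 and 1.96 units. FBtr0071783 had the largest fall, with 6.33, 5.62 and 29.1 units in Torso-RNAi, against 139, 2103 and 373 in control (-5.56 ± 1.17, adjusted p = 0.0018), and -6.45 to -4.49 with single arrays left out. The control arrays differed widely but all lay above Torso-RNAi. FBtr0088663, 1 of the 2 transcripts with a called 24 h peak in the larva, had 915, 196 and 454 units in Torso-RNAi, against 6176, 2647 and 5015 in control (-3.33 ± 0.51, adjusted p = 0.00016), again without overlap.

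RasV12 and Torso-RNAi were also set against each other, which uses no control array. At 18 h before puparium formation, 11 of the 186 transcripts were higher in RasV12 than in Torso-RNAi (28.2% of all transcripts) and 60 lower (21.0%), with a median of -0.54, against 0.11 over all transcripts. The lower ones were 45 of the 97 transcripts highest at 24 h and 15 of the 89 highest at 8 h. They held 47 of the 94 larva-rich transcripts, 9 of the 50 within 2-fold and 4 of the 42 gland-rich ones. The 11 higher ones held 3, 2 and 6 of these classes. Outside the set, 13 of the 197 larva-rich transcripts were higher and 69 lower. The 71 stable transcripts gave 2 higher and 18 lower. At 8 h, 21 were higher (29.0%) and 36 lower (21.9%), with a median of -0.36, against 0.10, and the stable transcripts gave 8 and 15. By class, 8 of the larva-rich transcripts were then higher and 21 lower, of those within 2-fold 6 and 11, and of the gland-rich ones 7 and 4. Outside the set, 23 of the 197 were higher and 22 lower.

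FBtr0079759 was among the 2 highest in RasV12 relative to Torso-RNAi at both times. At 18 h it had 908, 1281 and 439 units in RasV12, against 64.1, 35.1 and 13.8 in Torso-RNAi (4.67 ± 0.49, adjusted p = 3.5e-06), and at 8 h 2440.1, 2573 and 2121, against 142, 56.9 and 93.5 (4.70 ± 0.49, adjusted p = 3.0e-06). Control glands had 213, 139 and 159 units at 8 h, against 89.4, 89.3 and 94.8 at 18 h, below RasV12 at both times. At 18 h FBtr0077152 was also higher, by 2.72 ± 0.58 (adjusted p = 0.0014), and at 8 h FBtr0071920, by 7.04 ± 2.03 (adjusted p = 0.010), with a range of 5.79 to 9.11 when single arrays were left out.

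FBtr0077020 had 8.76, 10.6 and 9.22 units in RasV12 at 18 h, against 370.1, 445 and 395 in Torso-RNAi (-5.41 ± 0.41, adjusted p = 2.2e-07). The control arrays, at 81.2, 48.6 and 63.4 units, lay between them. FBtr0076925 was lower by a similar amount (-5.43 ± 1.03, adjusted p = 0.00056), with a range of -6.58 to -4.58 when single arrays were left out. At 8 h, FBtr0114542 had 32.9, 28.3 and 43.9 units in RasV12, against 1302, 746 and 761 in Torso-RNAi (-4.71 ± 0.28, adjusted p = 2.6e-08), with control again between, at 324, 269.7 and 525. FBtr0083859 had 33.6, 43.8 and 54.9 units in RasV12, against 1467, 1435 and 1472 in Torso-RNAi (-5.08 ± 0.39, adjusted p = 2.2e-07), and control at 110.4, 104 and 118 units lay nearer to RasV12. None of these RasV12 groups overlapped with Torso-RNAi.

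Whether an effect differed between the times was tested as an interaction. The RasV12 effect was higher at 8 h than at 18 h before puparium formation in 5 of the 186 transcripts (2.79% of all transcripts) and lower in 3 (4.69%). The Torso-RNAi effect was higher in 0 (1.34%), with 11 at an unadjusted p under 0.05 in limma, and lower in 6 (1.66%). The median interaction was -0.27 for RasV12 and -0.71 for Torso-RNAi, against -0.03 over all transcripts in each. The set also held 66 transcripts, 35.5% of it, that were called in none of the 4 comparisons with control, against 26.5% of all transcripts. In control glands 109 of the 186 had a log2 mean under 7 at 8 h before puparium formation and 97 at 18 h, and in Torso-RNAi 52 at 18 h. The level of 7 is that of the rule in wild type, and the driver-cross arrays have a lower floor. The share of all transcripts under 7 was not counted. Low intensity can limit how small a fold the arrays show, and its part in the missing calls was not tested.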

How the data were processed

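RNA intensities of 42 single-colour arrays, 24 wild-type and 18 driver-cross, were used as the authors deposited them: linear intensities made with RMA per the submitters' processing notes. No RMA version, probe annotation or chip assignment is named in those sources. Groups and times were taken from the labels.

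Intensities were taken to log2 without a pseudocount or filter. Each of the 2 kinds of array was fitted with group means and empirical Bayes moderation in limma 3.58.1 (R 4.3.3). Benjamini-Hochberg adjustment covered all 16637 transcripts in each comparison, and calls needed an adjusted 2-sided p under 0.05. Standard errors are those of limma, with 3 arrays a group, and so few arrays limit the precision. The fit was tested on simulated data.

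The set and its lists were chosen with earlier results of these data known. Named transcripts are the 2 with the largest peak at each time, the nearest to each threshold, and, in each comparison, the 2 largest rises and 2 largest falls among called transcripts whose arrays do not overlap (for interactions, among called ones). The larval peaks and the examples of gland against larva were named after their values had been seen. Alternatives were other normalizations, a filter on transcripts dimmer than the 20th percentile, other moderation, array weights, the replicate block, the compared groups or the larval arrays alone, stricter or looser rules and the removal of each array.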

Additional observations from a re-analysis of the deposited data

Results flagged for a closer look

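The effect of a genotype was tested for a difference between 8 h and 18 h before puparium formation in limma, at an adjusted p under 0.05. The RasV12 effect was higher at 8 h in 5 of the 186 transcripts (2.79% of all transcripts) and lower in 3 (4.69%), shares of the set of 2.69% and 1.61%, so the set's share was no larger than that of all transcripts in either direction. FBtr0071611 had 76.9, 74.1 and 77.9 units in RasV12 at 8 h, against 22.1, 29.5 and 23.2 in control, and at 18 h 8.88, 7.54 and 4.33 in RasV12, against 26.9, 17.2 and 33.9 in control. RasV12 arrays were thus all above control at 8 h and all below it at 18 h, and the effects differed by 3.55 ± 0.52 (log2, SE, adjusted p = 0.0019). FBtr0083971 had 474, 603 and 474 units in RasV12 at 8 h, against 134, 198 and 174 in control, and at 18 h 250.3, 196 and 105 in RasV12, against 492, 1059 and 293 in control. The direction turned here as well, with a difference of 3.25 ± 0.61 (adjusted p = 0.0072).

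FBtr0113400 had 4.70, 4.53 and 4.47 units in RasV12 at 8 h, against 3.25, 3.05 and 5.06 in control, and at 18 h 189.6, 74.2 and 55.4 in RasV12, against 3.79, 4.63 and 3.46 in control, a difference of -4.24 ± 1.10 (adjusted p = 0.033). FBtr0072063 had 47.2, 74.8 and 30.1 units in RasV12 at 8 h, against 51.2, 73.4 and 65.3 in control, and at 18 h 213, 166 and 208 in RasV12, against 87.4, 67.2 and 77.3 in control, a difference of -1.74 ± 0.44 (adjusted p = 0.028). The first call was lost with 10 and the second with 7 of the 12 arrays left out in turn.

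The Torso-RNAi effect was higher at 8 h in 0 transcripts (1.34% of all transcripts), with 11 at an unadjusted p under 0.05 in limma, and lower in 6 (1.66%). FBtr0071783 had 6.33, 5.62 and 29.1 units in Torso-RNAi at 8 h, against 139, 2103 and 373 in control, and at 18 h 1675, 5291 and 11207 in Torso-RNAi, against 2260.4, 457 and 4032 in control. The groups overlapped at 18 h and not at 8 h, and the difference of -7.08 ± 1.65 (adjusted p = 0.035) ranged from -7.98 to -6.01 and lost its call with 8 of the 12 arrays left out in turn. FBtr0087911 had 3.32, 8.13 and 8.52 units in Torso-RNAi at 8 h, against 3.19, 3.44 and 4.87 in control, while at 18 h its Torso-RNAi arrays were all above control, a difference of -4.72 ± 0.79 (adjusted p = 0.0063) that kept its call with each array left out.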

How the results depend on the processing

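The set itself moved with its rule: it held 287 transcripts with a difference of at least 0.6 and 130 with at least 1, 154 with a level of at least 8, 214 by group medians (135 shared), 181 with arrays centred and 198 after a second quantile normalization. None of the 46 named changes reversed its sign under any alternative run. Each change was counted once for every setting it was run under. With 1 array left out the call was lost in 62 such runs and kept in 250, and under other settings it was lost in 12 and kept in 365. Leaving out 1 array moved 12 of the 46 by over 1.5-fold, at most 6.23-fold for FBtr0071920 in RasV12 at 18 h before puparium formation. Of the counts, 444 stayed within 1.5 times their value under an alternative and 102 did not, among them those that follow.

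Some of the moved counts came from the choice of test. With dim transcripts left out, and with trend and robust moderation, the RasV12 interaction was lower in 5. Array weights gave 7 for it, 2 higher for the Torso-RNAi interaction, 15 larval rises between 8 and 36 h, and 8 higher and 41 lower in control glands over time. A 2-fold minimum left 4 larval rises between 8 and 36 h, 8 larval falls between 24 and 36 h, 1 higher in control glands and 1 larval peak at 24 h. With the compared groups alone, the larva gave 9 rises and 6 falls between 4 and 8 h, 14 rises between 8 and 36 h, 33 rises and 10 falls between 4 and 24 h and 1 peak at 8 h. The same setting gave 8 higher in control glands, 18 higher and 6 lower in Torso-RNAi at 8 h before puparium formation, 18 higher in RasV12 than in Torso-RNAi at 18 h, 6 lower for the RasV12 interaction and 1 higher for the Torso-RNAi interaction. The 12 larval arrays fitted alone gave 6 rises between 4 and 8 h, 15 rises between 8 and 36 h, 35 rises and 13 falls between 4 and 24 h, 1 rise and 24 falls between 24 and 36 h, and 1 peak at 8 h and 4 at 24 h. The cause was not tested.

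Smaller sets gave smaller counts by construction. With a difference of at least 1, the larva had 1 fall between 4 and 8 h, 2 rises and 15 falls between 8 and 36 h and 1 peak at 24 h. RasV12 was lower than control for 10 transcripts at 18 h and 13 at 8 h, Torso-RNAi for 7 at 8 h, RasV12 was lower than Torso-RNAi for 23 at 8 h, and the RasV12 interaction was higher for 3. The 71 transcripts kept with each gland array left out had 0 larval falls between 4 and 8 h, 1 rise and 10 falls between 8 and 36 h, 9 rises between 4 and 24 h and 1 peak at 24 h. Their driver-cross counts, higher and then lower, were 2 and 12 in control over time, 17 and 8 in RasV12 at 18 h, 10 and 11 at 8 h, 27 and 1 in Torso-RNAi at 18 h, 13 and 4 at 8 h, 2 and 18 for RasV12 against Torso-RNAi at 18 h, 8 and 15 at 8 h, and 2 and 1 for the RasV12 interaction.

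With single arrays left out, the larva had 0 to 2 falls between 4 and 8 h, 5 to 8 rises between 8 and 36 h, 3 to 6 falls between 4 and 24 h, 5 to 13 falls between 24 and 36 h and 0 to 3 peaks at 24 h. Control glands had 0 to 3 higher and 16 to 23 lower over time. RasV12 had 11 to 18 lower at 18 h and 12 to 27 lower at 8 h, and Torso-RNAi 17 to 43 higher at 8 h. The interactions ranged from 0 to 6 lower for RasV12, and from 0 to 1 higher and 2 to 10 lower for Torso-RNAi.

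Deviations of same-numbered arrays of the compared groups correlated at -0.48 to 0.15 over transcripts, and the number was not taken as a pairing. Larval arrays of 24 and 36 h with the same number deviated in opposite directions, at -0.48, -0.46 and -0.29. Deviations may thus not be independent between these groups, and the cause was not tested. With the replicate block, 1 larval fall was called between 4 and 8 h in place of 2, no other count moved by over 1.5 times, and 3 named calls were lost. Intensities near the floor of an array limit the smallest change that can be seen, and single arrays decide many wild-type gland peaks.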
